A study of Mus musculus with 6 samples.

Results

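The DNA replication genes described here are 33 genes that license replication origins, build and run the replication fork, supply deoxynucleotides, drive entry into S phase and package or repair new DNA. They were chosen by gene symbol, and all 33 were found among the 24015 genes of the count files. RNA was sequenced from 6 bulk libraries. Each held FACS-sorted stem and progenitor cells of acute myeloid leukaemia that had fully developed in mice. The oncogene was MLL-AF9, which joins part of the chromatin regulator MLL to AF9, and the leukaemia was generated from lin-cKit+ bone marrow progenitors of NIKERT2 mice, which carry Rosa-loxp-STOP-loxp-NIK and Rosa-CreERT2. The 3 LSPCT libraries came from mice given tamoxifen, which lets the Cre recombinase remove the stop in front of the NIK transgene, and the 3 LSPC libraries from mice left untreated. MLL-AF9 and both Rosa alleles are shared by the groups, and tamoxifen was given to the LSPCT mice alone, so effects of the drug, of Cre activity and of NIK cannot be told apart. The labels do not give the sort gates, the age of the mice, or whether replicates are different mice. The p-values therefore refer to variation among these 6 libraries, part of which may be technical.

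In G1 phase, CDC6 and CDT1 help the origin recognition complex load the MCM2-7 ring, the inactive helicase, onto DNA. At S-phase entry, E2F factors drive transcription of many of these genes, cyclin E bound to CDK2 helps to switch origins on, and CDC45 and the GINS complex join the ring to form the active helicase. Polymerase alpha with primase starts each DNA strand, the clamp loader RFC places the sliding clamp PCNA, and ribonucleotide reductase and thymidylate synthase supply the deoxynucleotides. These genes are transcribed mostly around the G1/S border, so in a bulk library their level also follows the share of cells that are cycling. Fewer cells in S phase and less RNA per cell cannot be told apart in such libraries.

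Library totals were 19999071 to 22454753 counts in LSPCT and 20410001 to 26773176 counts in LSPC. Map3k14, the gene of NIK and thus the check of the labels, stood at 129.9, 190.6 and 159.5 CPM (read counts scaled to the library total and, here and below, by TMM factors) in LSPCT replicates 1 to 3, against 26.5, 24.2 and 28.8 CPM in LSPC replicates 1 to 3 (log2 fold change 2.59, edgeR adjusted p = 4.35e-05). Kit, Cd34 and Ptprc, surface markers of progenitors and of leukocytes, were present in every library and did not pass the test. Of the 10 markers of leukaemia stem and progenitor cells 3 fell, namely Flt3 (log2 -1.20), Fcgr3 (-0.49) and Mpo (-4.30). Mpo was at 372.0, 112.0 and 75.7 CPM in LSPCT replicates 1 to 3, against 4080, 4028 and 2940 CPM in LSPC. The summed level of these markers was 4689 to 5588 CPM in LSPC and lower in every LSPCT library, down to 1710 CPM. Most of the LSPC sum was Mpo, so the lower sum does not show that the list fell as a whole. The groups were thus not alike in Flt3, Fcgr3 and Mpo. Of 8 tested macrophage markers 7 rose, and the summed level of that list was 633 to 1460 CPM in LSPCT, highest in replicate 1, against 160.4 to 179.7 CPM in LSPC. Most of the LSPCT sum was Vcam1, at 930.2, 456.1 and 457.4 CPM in LSPCT replicates 1 to 3, so the sum is no measure of macrophage content. C1qa was at 92.6, 8.03 and 14.3 CPM in LSPCT and 0.339 to 3.63 CPM in LSPC. C1qb, C1qc, Mrc1 and Fcgr1 also rose without overlap (log2 4.17 to 5.19), each highest in LSPCT replicate 1, whereas Cd163 overlapped and did not pass. Mature neutrophil markers summed to 171 to 498 CPM in LSPCT, against 10.2 to 2024 CPM in LSPC, highest in LSPC replicate 3, and none of 6 passed. Erythroid markers stayed at or under 1.25 CPM in sum, with Hbb-b1 and Hba-a1 at 0, and T cell markers at 8.45 to 24.9 CPM in LSPCT against 5.62 to 8.69 CPM in LSPC. B cell markers summed to 26.97 to 48.7 CPM in LSPCT and 40.7 to 45.5 CPM in LSPC, nearly all of it Cd79b, with Pax5 at 0. Principal component 2, with 17.2% of the variance, placed LSPCT replicate 1 at 48.2, apart from LSPCT replicates 2 and 3 at -25.8 and -18.6.

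Of the 33 replication genes, all of which were expressed enough to be tested, 1 rose and 5 fell in LSPCT. The gene that rose was Tk1, and those that fell were Ccne2, Cdc6, Mcm2, Cdt1 and Cdc45. The 6 genes are 18.2% of the members, and over all 12729 genes tested 17.2% passed (edgeR quasi-likelihood test, Benjamini-Hochberg adjusted p under 0.05), so the share of members that changed was near the background. The number that fell was 2 without LSPCT replicate 2, LSPCT replicate 3, LSPC replicate 1 or LSPC replicate 2, and 3 without LSPC replicate 3. Over all genes the number that fell was also smaller at these settings, at 443 to 742, against 1049 with all libraries. By direction, 8.96% of all tested genes rose and 8.24% fell. The median log2 fold change of the members was -0.02, against -0.003 over all genes tested, and the median of its absolute size was 0.13, against 0.23. The members were well measured, with 206 to 14827 counts per library and a median standard error (SE) of 0.09 on the log2 scale, against 0.14 over all genes tested.

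For the 27 members that did not pass, log2 fold changes lay between -0.25 and 0.28. The 95% interval lay wholly within 0.5 of 0 on the log2 scale for 26 of these 27, the exception being Pola1. The 3 LSPCT values lay wholly above the 3 LSPC values for 4 members and wholly below them for 10, together 42.4% of the members. Such a separation was seen for 37.7% of all genes tested, 18.1% upward and 19.6% downward.

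**Figure D1:**
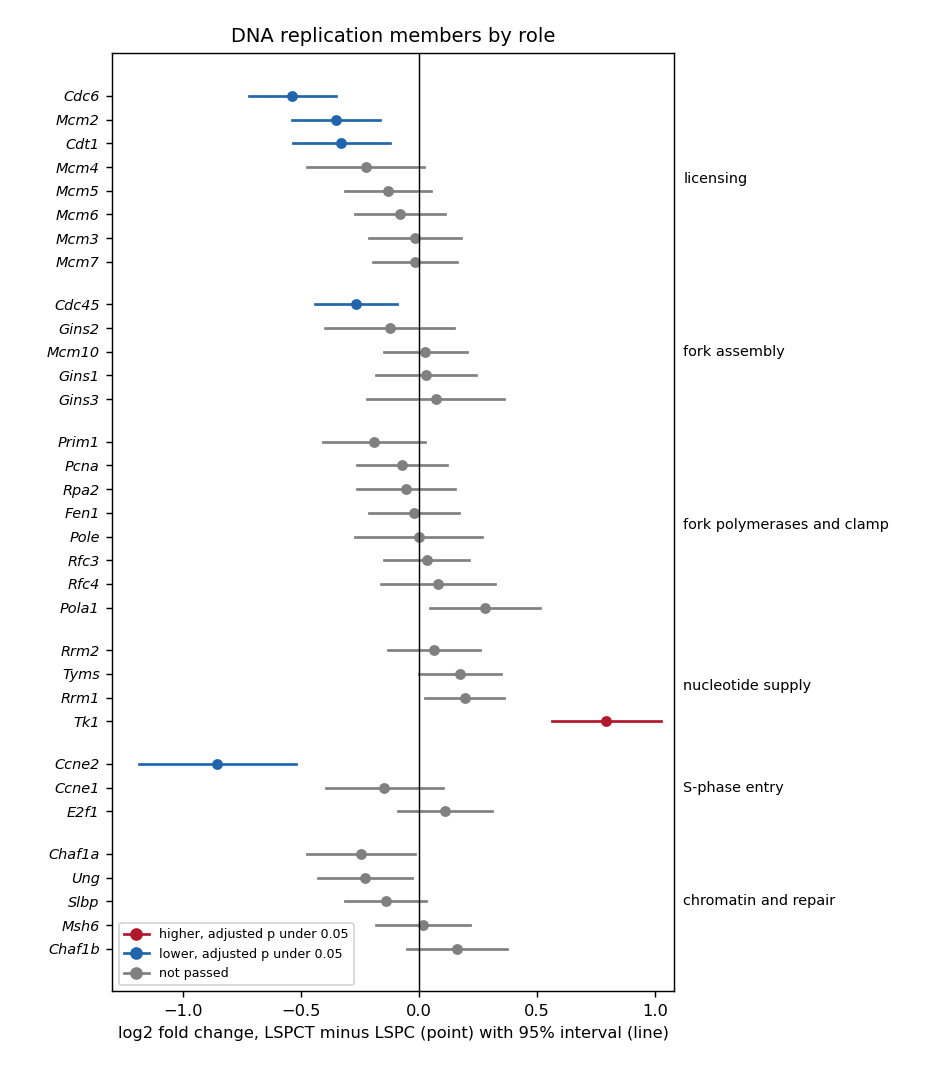
Log2 fold change of each of the 33 members, LSPCT minus LSPC, with its 95% interval, grouped by role. Tk1 lies farthest to the right, at 0.79, and Ccne2 lies farthest to the left, at -0.86; grey members did not pass the test.

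The licensing genes held 3 of the 5 members that fell. These 3 are 37.5% of 8 genes, against the 8.24% of all genes tested that fell, and the difference was not tested. Cdc6, the ATPase that helps load the MCM ring, was at 68.0, 65.0 and 66.2 CPM in LSPCT replicates 1 to 3, against 99.7, 97.1 and 92.1 CPM in LSPC replicates 1 to 3. Every LSPCT library lay below every LSPC library, and the spread within either group was small beside the gap. The log2 fold change was -0.54 (SE 0.08, 95% interval -0.72 to -0.35, edgeR adjusted p = 0.00338), that is 0.689 times the LSPC level.

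Cdt1, the partner of CDC6 in loading, was at 154.4, 157.9 and 142.8 CPM in LSPCT, against 205.9, 188.0 and 178.0 CPM in LSPC. The groups did not overlap, and LSPC replicate 3 stood nearest to the LSPCT libraries. Its log2 fold change was -0.33 (SE 0.09, 95% interval -0.54 to -0.12, edgeR adjusted p = 0.0400). The call of Cdt1 ended with upper quartile factors or the replicate number as a block (edgeR adjusted p = 0.0549 and 0.0625) and when any library other than LSPCT replicate 1 was left out (edgeR adjusted p 0.0600 to 0.189).

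Mcm2 was the one ring subunit that fell. Its level was 356.8, 334.2 and 360.4 CPM in LSPCT, against 477.4, 443.8 and 421.4 CPM in LSPC, with no overlap. The log2 fold change was -0.35 (SE 0.08, 95% interval -0.54 to -0.17, edgeR adjusted p = 0.0210). The call ended without LSPCT replicate 2 or 3 or LSPC replicate 1 or 2 (edgeR adjusted p 0.0511 to 0.118, log2 -0.36 to -0.30).

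The other ring subunits moved less. Mcm5 was at 456.2, 438.2 and 427.4 CPM in LSPCT, against 515.2, 474.7 and 457.3 CPM in LSPC, which did not overlap, yet its log2 fold change of -0.13 (95% interval -0.31 to 0.05) did not pass (edgeR adjusted p = 0.300). Mcm4 (log2 -0.23, 95% interval -0.47 to 0.02) and Mcm6 (-0.08, 95% interval -0.27 to 0.11) overlapped between groups and did not pass. Mcm3 and Mcm7 both gave a log2 fold change of -0.02, with 95% intervals of -0.21 to 0.18 and -0.19 to 0.16. The fitted value of all 8 licensing genes was below 0, but those of Mcm3 and Mcm7 turned to 0.02 each with upper quartile factors. It was below 0 for 20 of the 33 members and for 6412 of all 12729 genes tested, and the difference was not tested. No licensing gene rose, with 0 higher at an unadjusted p under 0.05 in edgeR and 0 called by DESeq2 or limma voom. Over all genes tested 8.96% rose.

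Since the ring holds its subunits in equal number, their levels were also set side by side per length, with exon lengths taken from GENCODE M21 rather than from the annotation behind the counts. Mcm2 made up 14.5%, 14.5% and 15.3% of the summed length-scaled level of Mcm2 to Mcm7 in LSPCT, against 17.7%, 16.9% and 17.4% in LSPC. The LSPCT shares of Mcm2 lay below all LSPC shares. Mcm7 made up 20.8%, 22.2% and 20.5% in LSPCT, against 19.6%, 19.8% and 19.8% in LSPC, and Mcm3 18.5% to 19.3% in LSPCT, against 17.2% to 18.2% in LSPC. These shares rest on the same counts as the fold changes and were not tested.

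Among the genes that turn the loaded ring into a moving helicase, Cdc45 fell and the others did not pass. Cdc45, the helicase activator, was at 103.9, 107.6 and 104.6 CPM in LSPCT, against 125.9, 129.3 and 125.4 CPM in LSPC. The 2 groups were each tight and did not overlap. The log2 fold change was -0.27 (SE 0.08, 95% interval -0.44 to -0.09), close to the threshold (edgeR adjusted p = 0.0453). Its call ended with upper quartile factors, with no filter, with the stricter filter, with the replicate number as a block and without any library other than LSPCT replicate 1 (edgeR adjusted p 0.0501 to 0.160, log2 -0.29 to -0.24).

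The GINS subunit genes gave log2 fold changes of 0.03 (Gins1), -0.13 (Gins2) and 0.07 (Gins3), and Mcm10, whose protein helps to activate the assembled helicase, gave 0.03. All 4 overlapped between groups, with edgeR adjusted p of 0.523 to 0.857. Mcm10 was the steadiest of them, at 81.3 to 82.7 CPM in LSPCT and 78.9 to 82.6 CPM in LSPC. Gins3 was highest in LSPCT replicate 3, at 29.9 CPM, against 23.2 and 24.0 CPM in LSPCT replicates 1 and 2 and 23.8 to 25.3 CPM in LSPC. Exons of Gins2 share 2758 bases with the opposite-strand gene Gse1 in GENCODE M21. Whether the counting used strand is not given, so Gins2 counts may hold reads of Gse1.

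Among the genes that copy DNA at the fork no member passed. With 8 genes this is not read as a difference from the 17.2% of all genes tested that passed. None of 8 rose or fell (edgeR; at an unadjusted p under 0.05, Pola1 alone was higher and 0 were lower, and DESeq2 and limma voom called 0). Pola1, the catalytic subunit gene of polymerase alpha, was at 84.8, 92.9 and 102.8 CPM in LSPCT, against 73.0, 82.6 and 75.6 CPM in LSPC. The groups did not overlap, but LSPCT replicate 1 lay close to LSPC replicate 2, and the log2 fold change of 0.28 (95% interval 0.05 to 0.51) did not pass (edgeR adjusted p = 0.0969). Without LSPCT replicate 1 Pola1 passed as higher, with a log2 fold change of 0.35 (edgeR adjusted p = 0.0261).

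Prim1, the primase catalytic subunit gene that works with POLA1, pointed the other way with a log2 fold change of -0.19 (95% interval -0.41 to 0.02), and it overlapped between groups and did not pass (edgeR adjusted p = 0.206). The sliding clamp gene Pcna was at 427.0, 367.3 and 393.1 CPM in LSPCT, against 425.4, 415.9 and 406.2 CPM in LSPC (log2 -0.07, 95% interval -0.26 to 0.12). The clamp loader genes Rfc3 (0.03) and Rfc4 (0.08), the flap nuclease gene Fen1 (-0.02) and the single-strand binding gene Rpa2 (-0.06) had edgeR adjusted p of 0.651 to 0.888. Pole, the leading-strand polymerase gene, had 90.7, 117.7 and 118.2 CPM in LSPCT, against 108.7, 113.4 and 104.8 CPM in LSPC. LSPCT replicate 1 was thus the lowest of all 6 libraries for Pole, and the log2 difference was 0.00 with it (95% interval -0.27 to 0.27) and 0.12 without it (edgeR adjusted p = 0.319).

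**Figure D2:**
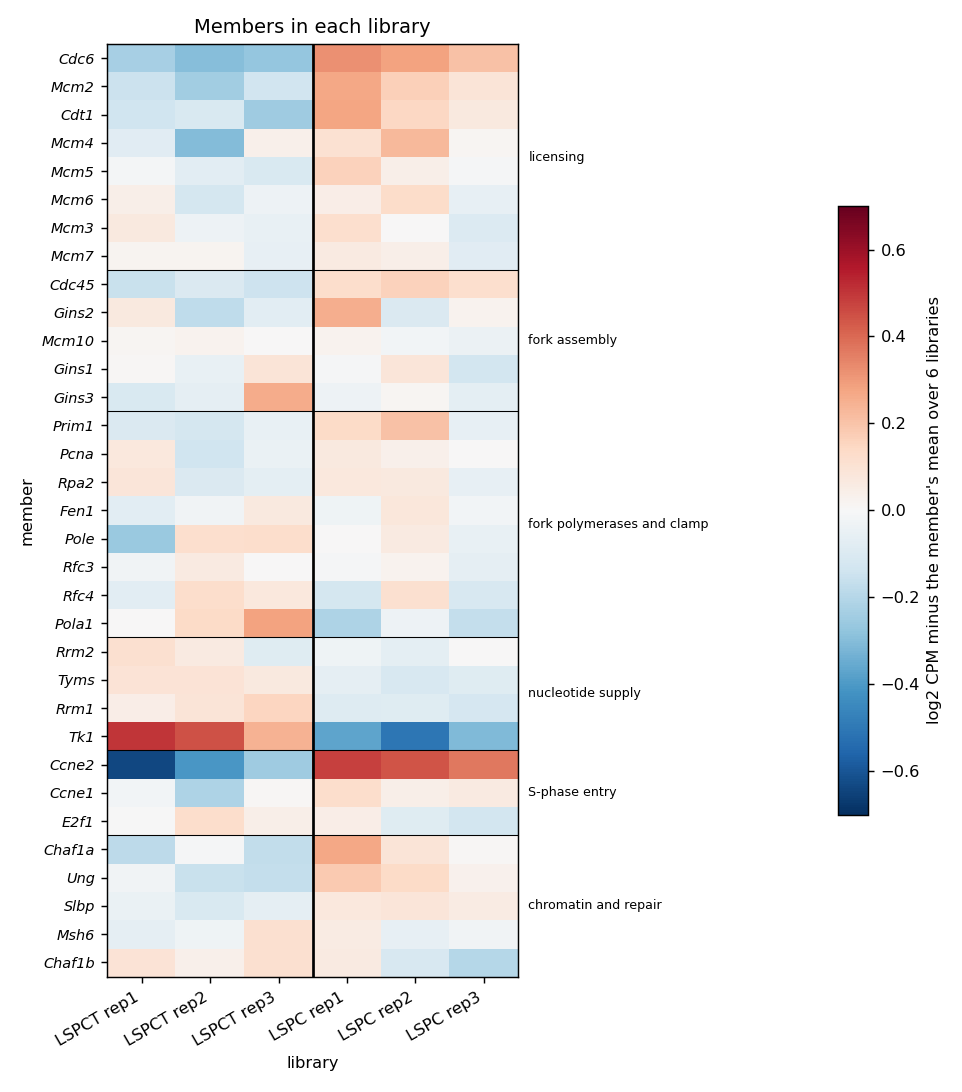
Log2 CPM of each member in each library minus that member's mean over the 6 libraries, grouped by role, with LSPCT replicates left of the black line and LSPC replicates right of it. Tk1 and Ccne2 separate the groups most, and LSPC replicate 3 is paler or bluer than LSPC replicates 1 and 2 for most members.

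The nucleotide supply genes held the member that rose. Tk1, the cytosolic thymidine kinase of the salvage route to dTTP, was at 191.8, 184.8 and 160.7 CPM in LSPCT, against 104.8, 95.4 and 109.6 CPM in LSPC. The lowest LSPCT library lay well above the highest LSPC library. The log2 fold change was 0.79 (SE 0.10, 95% interval 0.56 to 1.03, edgeR adjusted p = 0.00159), a 1.73-fold higher level.

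Tk1 and its neighbour Afmid, a kynurenine pathway gene, lie on opposite strands and share 83 exon bases where both genes start, in GENCODE M21. Afmid averaged 21.1 CPM in LSPCT and 6.42 CPM in LSPC, a log2 fold change of 1.71 (edgeR adjusted p = 0.000523). Whether reads of either gene were counted for the other was not tested. Tk1 averaged 179.1 ± 16.3 CPM in LSPCT and 103.3 ± 7.23 CPM in LSPC (SD, n = 3 each).

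None of the 3 genes of de novo supply passed, against 17.2% of all genes tested. With so few genes this is not read as a difference. Rrm1, the large subunit gene of ribonucleotide reductase, was at 343.2, 354.5 and 369.1 CPM in LSPCT, against 312.2, 313.7 and 306.7 CPM in LSPC. Tyms, the thymidylate synthase gene, was at 69.4, 69.5 and 68.0 CPM in LSPCT, against 62.1, 60.1 and 61.3 CPM in LSPC. Neither gene overlapped between groups, but the log2 fold changes of 0.19 for Rrm1 (95% interval 0.03 to 0.36, edgeR adjusted p = 0.107) and 0.17 for Tyms (95% interval -0.002 to 0.35, edgeR adjusted p = 0.162) did not pass. Rrm2, the small subunit gene whose protein is made in S phase, overlapped between groups and was lowest of all 6 libraries in LSPCT replicate 3 (log2 0.06, 95% interval -0.13 to 0.26). None of the 4 supply genes fell, with 0 lower at an unadjusted p under 0.05 in edgeR and 0 called by DESeq2 or limma voom. Over all genes tested 8.24% fell.

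The E-type cyclins bind and activate CDK2 at the G1/S border, and Ccne2 fell. It was at 10.3, 12.1 and 13.5 CPM in LSPCT, against 22.5, 21.9 and 20.8 CPM in LSPC, lowest in LSPCT replicate 1. The groups lay far apart, with a log2 fold change of -0.86 (SE 0.15, 95% interval -1.19 to -0.52, edgeR adjusted p = 0.00602), that is 0.552 times the LSPC level. Exons of Ccne2 share 336 bases with the opposite-strand gene Ints8, which averaged 41.6 CPM in LSPCT and 42.4 CPM in LSPC and did not pass (log2 -0.03, edgeR adjusted p = 0.876).

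Ccne1, the other E-type cyclin gene, was at 24.9, 21.7 and 25.4 CPM in LSPCT, against 27.5, 25.98 and 26.3 CPM in LSPC. These values did not overlap, but the log2 fold change of -0.15 (95% interval -0.39 to 0.10) did not pass (edgeR adjusted p = 0.395). The ratio of Ccne2 to Ccne1 CPM within a library was 0.413, 0.558 and 0.533 in LSPCT, against 0.817, 0.842 and 0.790 in LSPC. Every LSPCT ratio lay below every LSPC ratio, and as this pair was set side by side with the values known, the difference is given without a test. E2f1, a transcription factor gene that drives many of these genes and is itself an E2F target, overlapped between groups (log2 0.11, 95% interval -0.09 to 0.31, edgeR adjusted p = 0.437).

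**Figure D3:**
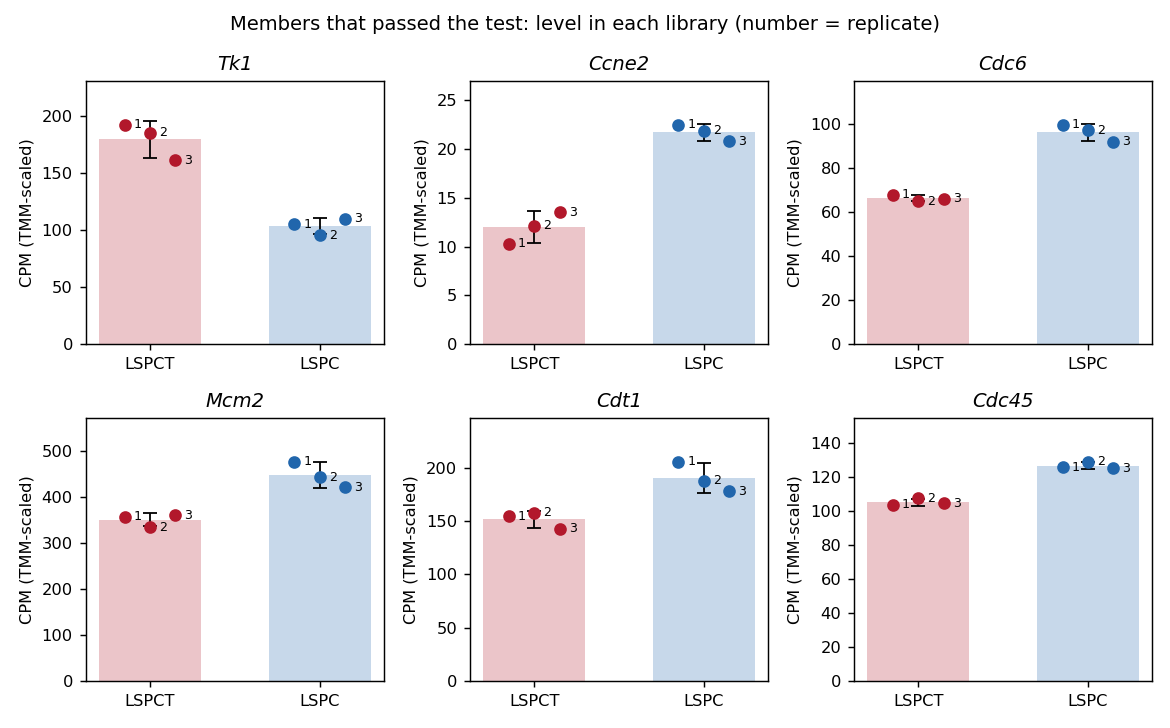
CPM of the 6 members that passed, in each library (points, numbered by replicate), with the group mean (bar) and SD (error bar, n = 3), LSPCT left of LSPC. No LSPCT point of any of the 6 genes reaches the range of its LSPC points.

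**Figure D4:**
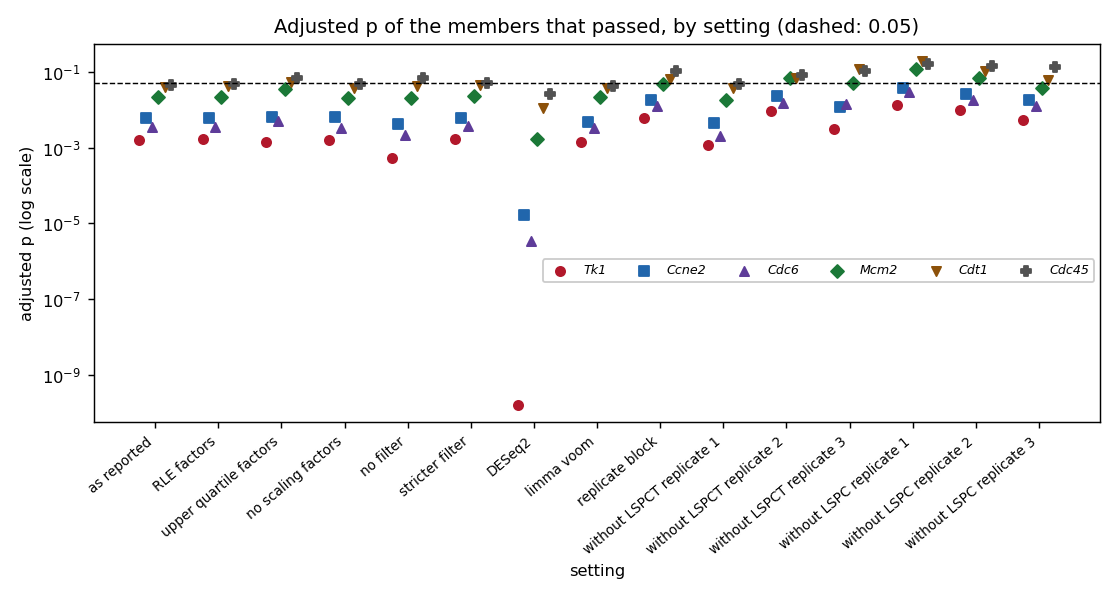
Adjusted p (log axis) of the 6 members that passed, as reported and under each of the 14 alternatives, with the threshold of 0.05 as a dashed line. Tk1, Ccne2 and Cdc6 lie below the line at every setting, whereas Cdc45, Cdt1 and Mcm2 lie on either side of it.

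Among the genes that package and repair new DNA no member passed. With 5 genes this is not read as a difference from the 17.2% of all genes tested that passed. None of 5 rose or fell (edgeR; at an unadjusted p under 0.05, Chaf1a and Ung were lower and 0 were higher, and DESeq2 and limma voom called 0). Chaf1a, the large subunit gene of the histone chaperone CAF-1, was at 138.6, 156.5 and 139.8 CPM in LSPCT, against 190.2, 167.5 and 158.5 CPM in LSPC. Its partner Chaf1b was at 54.1, 51.9 and 54.7 CPM in LSPCT, against 52.9, 46.8 and 44.1 CPM in LSPC. Chaf1a did not overlap between groups and was lower in LSPCT, Chaf1b overlapped, and neither passed (log2 -0.25 and 0.16, edgeR adjusted p = 0.130 and 0.274). Exons of Chaf1a share 1862 bases with the opposite-strand gene Ubxn6, so its counts are uncertain.

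Ung, the uracil DNA glycosylase gene, was at 52.7, 48.1 and 47.6 CPM in LSPCT, against 60.9, 58.7 and 54.5 CPM in LSPC. The groups did not overlap and the log2 fold change of -0.23 (95% interval -0.43 to -0.03) did not pass (edgeR adjusted p = 0.109), though Ung passed as lower without LSPCT replicate 1 (adjusted p = 0.0461). Slbp, whose protein binds the stem-loop of replication-dependent histone mRNAs, was at 123.9, 119.2 and 122.8 CPM in LSPCT, against 134.8, 135.9 and 133.3 CPM in LSPC. Both groups of Slbp were tight and did not overlap, but the shift was small (log2 -0.14, 95% interval -0.32 to 0.03, edgeR adjusted p = 0.241). The mismatch repair gene Msh6 overlapped between groups (log2 0.02, 95% interval -0.18 to 0.21).

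The members also differed between libraries of a group. The 33 genes together took 0.541%, 0.523% and 0.535% of all counts in LSPCT replicates 1 to 3, against 0.566%, 0.561% and 0.534% in LSPC replicates 1 to 3. LSPC replicate 3 thus lay inside the LSPCT range, and it held the lowest LSPC value of 24 of the 33 members. The same library held the highest sum of neutrophil markers (2024 CPM, against 10.2 and 260.2 CPM in LSPC replicates 2 and 1), and the part of those cells in the members' levels was not tested. With LSPC replicate 3 left out, 1 member rose and 3 fell, and over all 13068 genes then tested 878 rose and 626 fell. LSPCT replicate 1, which stood apart on the principal component and in macrophage markers, was highest of its group for 12 members and lowest for 12. Without LSPCT replicate 1, 2 members rose and 6 fell, and Tk1 (log2 0.75), Ccne2 (-0.75) and Cdc6 (-0.55) were among them. At that setting 1657 of 12966 genes tested rose and 1592 fell, also more than with all libraries.

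Per length, Pcna was the most abundant member, at 261 RPKM (CPM per kilobase of exon) in LSPCT and 274 RPKM in LSPC. The ring genes Mcm2, Mcm3, Mcm5, Mcm6 and Mcm7 were at 104 to 149 RPKM in LSPCT and 133 to 151 RPKM in LSPC, and Mcm4 was lower, at 62.3 RPKM in LSPCT and 72.8 RPKM in LSPC. Tk1 stood at 124 RPKM in LSPCT and 71.7 RPKM in LSPC. Cdc6 was far below its partner Cdt1, at 13.9 RPKM in LSPCT and 20.1 RPKM in LSPC, against 69.3 RPKM and 87.1 RPKM for Cdt1 in the same groups. Ccne2 was the lowest of all 33 at 3.75 RPKM in LSPCT and 6.78 RPKM in LSPC. The RPKM values are approximate, since the exon lengths come from GENCODE M21.

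Promoters of the changed members are shown because E2F factors, which bind letters of the form below, are the known regulators of many of these genes. Of the 33 members 28 had a promoter in the RefSeq table of GRCm38.p6, 30 windows in all, each running from 250 bases before to 50 bases after the start site; Mcm4, Gins1, Gins2, Pole and Ccne2 had none. The capitals mark the E2F letters TTTCCCGC, TTTGGCGC, TTTGGCGG, TTTCGCGC or TTTGCCGC, or the CHR letters TTTGAA or TTCGAA, on either strand, where matches to different letters may overlap. Mcm3, which did not pass, was added after its values were seen, to set E2F letters beside a gene near 0.
Cdc6, chr11:98907901-98908200, plus strand: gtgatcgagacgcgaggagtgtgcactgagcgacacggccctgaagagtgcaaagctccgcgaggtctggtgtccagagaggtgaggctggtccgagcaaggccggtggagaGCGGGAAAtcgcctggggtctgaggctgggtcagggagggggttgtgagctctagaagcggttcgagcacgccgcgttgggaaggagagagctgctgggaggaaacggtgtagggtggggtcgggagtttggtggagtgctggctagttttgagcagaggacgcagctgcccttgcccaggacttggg
Cdt1, chr8:122567765-122568064, plus strand: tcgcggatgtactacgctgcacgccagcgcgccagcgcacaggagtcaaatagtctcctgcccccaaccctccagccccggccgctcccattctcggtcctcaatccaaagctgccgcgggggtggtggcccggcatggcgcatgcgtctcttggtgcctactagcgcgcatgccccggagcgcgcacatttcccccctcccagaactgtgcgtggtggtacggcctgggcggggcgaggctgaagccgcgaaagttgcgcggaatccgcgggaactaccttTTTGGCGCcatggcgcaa
Mcm2, chr6:88898731-88899030, minus strand: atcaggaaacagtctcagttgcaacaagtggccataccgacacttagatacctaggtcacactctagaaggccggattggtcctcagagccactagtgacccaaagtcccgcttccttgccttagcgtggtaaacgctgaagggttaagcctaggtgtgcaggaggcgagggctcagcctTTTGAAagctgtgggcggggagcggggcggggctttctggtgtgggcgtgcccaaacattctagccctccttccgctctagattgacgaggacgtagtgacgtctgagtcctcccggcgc
Cdc45, chr16:18811923-18812222, minus strand: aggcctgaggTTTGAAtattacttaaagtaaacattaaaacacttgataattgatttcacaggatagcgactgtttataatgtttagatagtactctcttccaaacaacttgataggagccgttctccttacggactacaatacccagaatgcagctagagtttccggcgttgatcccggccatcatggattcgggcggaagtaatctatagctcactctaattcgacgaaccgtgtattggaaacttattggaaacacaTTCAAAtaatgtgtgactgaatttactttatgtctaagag
Tk1, chr11:117825965-117826264, minus strand: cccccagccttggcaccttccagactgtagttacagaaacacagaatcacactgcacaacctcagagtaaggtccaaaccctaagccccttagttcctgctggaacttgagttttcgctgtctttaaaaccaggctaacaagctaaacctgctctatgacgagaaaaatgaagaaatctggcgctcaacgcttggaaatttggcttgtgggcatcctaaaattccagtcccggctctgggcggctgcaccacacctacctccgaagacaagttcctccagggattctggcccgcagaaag
Mcm3, chr1:20820263-20820562, minus strand: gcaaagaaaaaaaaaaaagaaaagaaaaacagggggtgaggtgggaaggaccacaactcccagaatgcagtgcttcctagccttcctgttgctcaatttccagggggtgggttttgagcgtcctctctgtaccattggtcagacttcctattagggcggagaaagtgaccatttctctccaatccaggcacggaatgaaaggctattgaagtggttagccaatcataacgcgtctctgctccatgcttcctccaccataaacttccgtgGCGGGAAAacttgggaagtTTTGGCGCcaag

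In these windows Cdc6 held TTTCCCGC on the opposite strand, beginning 138 bases before the start site, and Cdt1 held TTTGGCGC 32 bases after it. Mcm2 held TTTGAA 70 bases before the start site, Cdc45 held it 240 bases before on the same strand and 10 bases after on the opposite one, and Tk1 held none of the letters searched. Mcm3, picked for a log2 fold change near 0 (-0.02), held E2F letters 19 and 38 bases after the start site. Whether such letters go with a change was not tested. E2F letters were present in 2 of the 4 members that fell and have a window, in 9 of 23 that did not pass and in 0 of 1 that rose. Bases after the start site matched a GENCODE M21 transcript of the gene except in windows of Chaf1a, Mcm5, Mcm6 and Fen1. Chaf1a, Mcm5 and Mcm6 are among the 9. A RefSeq start site may also be an alternative start inside a gene. These counts therefore describe the windows alone, and a window without letters does not show a main promoter without them. They were present in 36.7% of the members' windows, against 4.65% of 12248 windows of genes tested and 2.78% of all 32851 windows. CHR letters were in 6 of the 30 members' windows, against 14.1% of those of genes tested and 19.2% of all. A match is a description of the letters in the window and does not show binding.

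The wider machinery was described with 6 lists of partner genes, 182 genes in all, every one of them tested. Of these, 8 rose and 16 fell, 13.2% against the 17.2% of all genes tested. Without LSPCT replicate 1, 20 rose, and without LSPCT replicate 2 or any LSPC replicate 2 to 5 rose. Those that fell numbered 3 to 10 when any library other than LSPCT replicate 1 was left out. Over all genes, 1657 rose without LSPCT replicate 1, against 1140 with all libraries. The number of all genes that fell was 443 to 742 when any other library was left out, against 1049. Among 42 replication partner genes, 1 rose and 1 fell (4.76% passed, against 17.2%), with a median log2 fold change of -0.05. Rfc5, a clamp loader subunit gene, rose to 97.2, 105.6 and 104.9 CPM in LSPCT, against 80.3, 78.2 and 77.7 CPM in LSPC (log2 0.38, SE 0.08, edgeR adjusted p = 0.0146). Wdhd1, whose protein couples the helicase to polymerase alpha, fell to 94.8, 102.0 and 110.9 CPM in LSPCT, against 130.6, 144.4 and 124.5 CPM in LSPC (log2 -0.38, SE 0.10, edgeR adjusted p = 0.0340). Orc1, the origin recognition subunit gene that is regulated in the cell cycle, had a log2 fold change of -0.55 and did not pass (edgeR adjusted p = 0.0580), whereas DESeq2 called it lower. Prim2 (log2 0.28), Orc3 (0.28) and Rfc2 (0.27) came near the threshold in the other direction (edgeR adjusted p 0.0608 to 0.0673). DESeq2 called Rfc2 higher.

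Among 29 further nucleotide supply genes 1 rose and 6 fell, with a median log2 fold change of -0.09. In this list 24.1% passed, against 17.2% of all genes tested, and 20.7% fell, against 8.24%. These differences were not tested. Tk2, the mitochondrial thymidine kinase gene, rose to 31.9, 27.2 and 26.99 CPM in LSPCT, against 20.1, 19.7 and 19.9 CPM in LSPC (log2 0.53, SE 0.11, edgeR adjusted p = 0.0152), so that the genes of both thymidine kinases were higher. Cad, whose protein carries out the first steps of pyrimidine synthesis, fell to 175.6, 210.3 and 183.7 CPM in LSPCT, against 311.1, 295.3 and 261.2 CPM in LSPC (log2 -0.61, SE 0.10, edgeR adjusted p = 0.00631). The CTP synthase genes Ctps (log2 -0.34) and Ctps2 (-0.43) fell, as did Adss (-0.36), an AMP synthesis gene. Impdh1, a gene of the step that commits IMP to guanine nucleotides, fell most, to 33.6, 14.7 and 18.2 CPM in LSPCT, against 60.1, 58.6 and 50.9 CPM in LSPC (log2 -1.35, SE 0.27, edgeR adjusted p = 0.0127). Shmt1, a folate cycle gene, passed only just (log2 -0.29, edgeR adjusted p = 0.0499).

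Of 30 E2F, RB and G1/S control genes, 1 rose and 4 fell, 16.7% against the 17.2% of all genes tested. Ccnd2, a D-type cyclin gene, rose to 43.4, 24.2 and 28.8 CPM in LSPCT, against 16.1, 11.3 and 17.2 CPM in LSPC (log2 1.11, SE 0.24, edgeR adjusted p = 0.0172), highest in LSPCT replicate 1. The CDK inhibitor gene Cdkn1a fell by 1.51 on the log2 scale, the phosphatase gene Cdc25a, which activates CDK2, by 0.39, the repressor gene E2f6 by 0.50 and the E2F dimerization partner gene Tfdp2 by 0.35 (edgeR adjusted p 0.00274 to 0.0417). Of 21 mismatch repair and chromatin assembly genes 1 rose and none fell, 4.76% against the 17.2% of all genes tested. The gene that rose was Hat1, which encodes a histone acetyltransferase that acts on new histone H4 (log2 0.69, SE 0.10, edgeR adjusted p = 0.00359). In edgeR 2 genes of the list were lower at an unadjusted p under 0.05, and DESeq2 and limma voom called 0 lower.

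The G2 and mitosis genes act after replication in the cycle. Of 36 genes 4 rose and 1 fell, 13.9% against the 17.2% of all genes tested. The fitted value was above 0 for 32 of the 36 and for 6317 of all 12729 genes tested, and the median log2 fold change was 0.16, against -0.02 for the replication members. The summed level of these 36 genes was 4580 CPM in LSPCT replicate 1 and 5817 and 5352 CPM in LSPCT replicates 2 and 3, against 4355 to 4795 CPM in LSPC, so that LSPCT replicate 1 lay within the LSPC range. Nusap1 (log2 0.84), Bub1b (0.62), Ndc80 (0.44) and Birc5 (0.43), genes of the spindle and its checkpoint, rose. Mybl2, which encodes a transcription factor of S phase and G2, fell (log2 -0.44, SE 0.10, edgeR adjusted p = 0.0202). The difference between these genes and the replication members was not tested.

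Of 24 replication stress and checkpoint genes, 4 fell and none rose (edgeR; at an unadjusted p under 0.05 Atr alone was higher, DESeq2 called 1 higher and limma voom 0). The 4 genes are 16.7% of the list, whereas 17.2% of all genes tested passed and 8.24% fell. Rad9a, a gene of the checkpoint clamp, fell to 25.7, 29.99 and 25.8 CPM in LSPCT, against 39.6, 40.6 and 40.6 CPM in LSPC (log2 -0.57, SE 0.10, edgeR adjusted p = 0.00628). Wee1, the kinase gene that restrains CDK1 and CDK2, fell by 0.51 on the log2 scale, the nuclease scaffold gene Slx4 by 0.45 and Rev3l, the catalytic subunit gene of translesion polymerase zeta, by 0.45 (edgeR adjusted p 0.0205 to 0.0317).

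**Figure D5:**
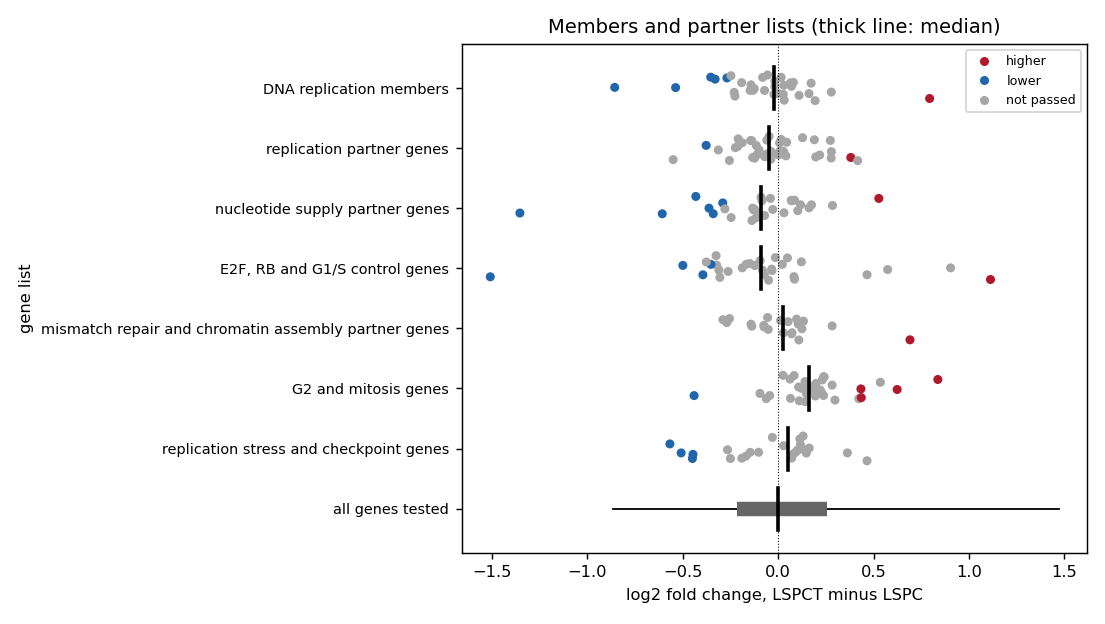
Log2 fold change, LSPCT minus LSPC, of every gene of the members and of the 6 partner lists, coloured by call, with the list's median as a thick line. The bottom row gives the median, the quartiles (grey bar) and the 5th to 95th percentiles (thin line, -0.86 to 1.47) of all 12729 genes tested; the G2 and mitosis genes have the highest median, 0.16.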

How the data were processed

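Total RNA of 6 libraries (3 LSPCT, 3 LSPC) was sequenced, and groups were taken from the sample titles. The authors deposited unnormalised read counts for each gene symbol. TopHat2 2.1.0, featureCounts, FastQC and DESeq2 are named, with build mm9, in the submitters' processing notes. The sources used here do not give the annotation, the strand setting or the treatment of multi-mapping reads, so genes that overlap or have close copies are uncertain. In GENCODE M21, exons of 9 members overlap an opposite-strand gene that was also counted. They are Ccne2, Cdc45, Chaf1a, Fen1, Gins2, Mcm7, Msh6, Rfc4 and Tk1. Rfc4 shares 175 bases with Eif4a2, which averaged 323 CPM in LSPCT and 312 CPM in LSPC.

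Counts were scaled by TMM (factors 0.986 to 1.007), filtered with filterByExpr (minimum count 10, leaving 12729 genes) and compared with edgeR 4.0.16 in R 4.3.3 (glmQLFit, glmQLFTest, group as the only term, two-sided). Benjamini-Hochberg adjustment ran over every gene tested (threshold 0.05), and the SE was obtained by dividing the size of the log2 fold change by the root of F. The limit that a count of 0 allows (3 counts, counting error alone) was 0.111 to 0.150 CPM. The steps were tested on simulated data in which 200 genes were changed. Of these changes, 23.1% of 1.5-fold, 67.2% of 2-fold and 78.5% of 4-fold size were called, all in the right direction. Of 12375 unchanged genes 5 were called. Small changes were thus often missed in the simulation, where fewer genes changed than passed here.

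Alternatives were RLE, upper quartile or no scaling factors, no filter, a stricter filter (3 or more libraries with CPM over 1), limma voom (limma 3.58.1), DESeq2 1.42.0, the replicate number as a block, and leaving out each library. Members, partner lists and motifs were chosen with earlier results of these data known. All members could be named, those that passed or did not overlap with values per library; of each partner list, up to 5 passing genes per direction with the smallest p. Orc1, Orc3, Prim2, Rfc2, Atr, Shmt1, Afmid and other genes that overlap a member were named after their values were seen. Promoter sequences are RefSeq's, build GRCm38.p6, whereas the reads were mapped to mm9.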

Additional observations from a re-analysis of the deposited data

How the results depend on the processing

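Tk1, Ccne2 and Cdc6 kept their direction and passed under all 14 alternatives, with log2 fold changes of 0.74 to 0.88, -0.94 to -0.75 and -0.56 to -0.50 and largest adjusted p of 0.0135, 0.0382 and 0.0288. Mcm2 passed under 10, Cdt1 under 7 and Cdc45 under 5 of the 14, always below 0. The number of members that fell was 3 with upper quartile factors and 3 with the replicate block. Leaving out each library in turn gave 1 to 2 members that rose and 2 to 6 that fell, and over all genes 586 to 1657 that rose and 443 to 1592 that fell, against 1140 and 1049 with all libraries. Of the partner genes, 13 rose with DESeq2, 9 fell with the replicate block, and without each library 2 to 20 rose and 3 to 19 fell. The cause of these differences was not tested; fewer samples enter when a library is left out.

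Members near 0 changed sign, none past the threshold. With upper quartile factors, log2 fold changes were 0.017 for Mcm3, 0.016 for Mcm7, 0.011 for Fen1 and 0.030 for Pole. Pole was also above 0 with RLE factors (0.006), no scaling factors (0.007) and the stricter filter (0.013). Without each library in turn, Mcm3 ranged from -0.062 to 0.042, Mcm7 from -0.054 to 0.018, Gins1 from -0.019 to 0.077, Gins3 from -0.044 to 0.144, Fen1 from -0.051 to 0.014, Pole from -0.064 to 0.119 and Msh6 from -0.029 to 0.055. Same-numbered libraries of the groups deviated from their group means with correlations across genes of 0.118, -0.115 and 0.106, so the numbers were not taken to pair the samples. Not every library correlated best with its own number, and Cdt1 and Cdc45 missed the threshold in the paired fit (adjusted p = 0.0625 and 0.104).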

Other observations

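CCAAT boxes (CCAAT, either strand), the letters bound by the factor NF-Y, were present in 63.3% of the 30 promoter windows of the replication members, against 37.7% of the windows of all genes tested and 37.4% of all windows. The difference was not tested. Mcm3, Mcm5, Mcm10, Rpa2 and Slbp, chosen after the matches were seen, held 3 such boxes each, and of the windows of Mcm7 one held 3 and the other 1.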
